A study of Mus musculus with 4 samples.

Results

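Metalloproteases are zinc-dependent enzymes that cut proteins of the cell surface and of the extracellular matrix, and their inhibitors bind and block them. The genes described here are those whose array name begins Adam, Adamts, Adamtsl or Mmp followed by a number, together with Timp1 to Timp4 and Reck. By this name rule, which uses no measured value, 84 genes were found among 31875 genes or transcripts on the array, with 114 probes. They comprise 32 Adam, 19 Adamts, 5 Adamtsl and 23 Mmp genes and 5 inhibitor genes. RNA came from mouse embryonic kidney at E15.5, and each sample was labelled with Cy3 and hybridised to its own Agilent array. The Six2GFP-positive group (2 arrays) and the Six2GFP-negative group (2 arrays) were the GFP-bright and GFP-dark fractions of a cell sort of kidneys that carry the Six2GFP reporter, from a hybrid strain of 129 and C57BL/6. Both groups therefore carry the reporter and differ in whether the sorted cells showed it, and the negative group is a mixture of all other kidney cells and not a pure cell type. How the reporter was built and how many embryos entered a sort are not given in the sources used here, so p-values measure only the spread between these arrays, which may be technical. A description of tamoxifen treatment stands on all 4 samples, so it separates no groups, and the labels' cell type entry names nephron progenitors for both groups.

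ADAMs are mostly membrane-bound and shed the outer parts of receptors, ligands and adhesion molecules. ADAMTS enzymes are secreted and cut proteoglycans, procollagens and microfibril proteins, and ADAMTS-like proteins share their ancillary domains but have no protease domain. MMPs are secreted or membrane-anchored and cut collagens, laminins and other matrix proteins. The kidney forms when the ureteric bud branches into the mesenchyme that surrounds it, and matrix turnover by such enzymes accompanies branching, capillary growth and nephron formation.

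All values are log2 processed signals minus the array's 75th percentile, so 0 is that percentile itself. Levels of different probes are not comparable with each other, and each is compared only between groups. Differences are Six2GFP-positive minus Six2GFP-negative with limma's standard error (SE), n = 2 arrays per group, and a gene is called when limma's p, adjusted by Benjamini-Hochberg over all 24151 genes tested, is under 0.05. Six2 had levels of 5.58 and 5.74 on the positive arrays, against -0.17 and -0.15 on the negative arrays, so the arrays follow their labels. Of 10 nephron progenitor markers, 9 were called higher in positive cells, and their summed signal, as multiples of the 75th percentile, was 221 and 216 in positive cells, against 54.4 and 55.5 in negative cells. Stromal markers had 9 of 10 called lower, with sums of 15.3 and 12.6 in positive cells and 109 and 99.1 in negative cells. Endothelial markers (9 of 10 lower), ureteric bud markers (9 of 10) and early nephron markers (8 of 8) also moved with the groups. So did podocyte (5 of 6), proximal tubule (6 of 8) and erythroid markers (6 of 8). Only 6 of 12 leukocyte markers and 2 of 6 distal tubule markers were lower, and the rest of both lists did not pass. Over all genes tested, 18.3% were called lower and 38.9% were called in either direction. In these lists Tbx18 among stromal markers and 3 erythroid markers were not well above background on either positive array, while every other listed marker was above it on at least 1 of them. In bulk RNA, fewer cells of a type and less RNA per cell cannot be told apart, and the part of these marker changes in the results below was not tested.

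Most metalloprotease genes that differed were lower in the progenitor fraction. Of the 84 genes, 65 (77.4%) passed the detection filter and were tested, close to the share of all genes on the array (75.8%), and 36 of them were called, against a background of 38.9% of all genes. The direction was lopsided: 30 were lower, against a background of 18.3% lower, and 6 were higher, against a background of 20.7% higher. By at least 2-fold, 20 were lower (background 12.7%) and 3 were higher (background 3.63%). The median difference was -0.41 over the 65 genes, or -0.29 with genes dim in a group at their bound, beside 0.15 over all genes tested. The groups did not overlap for 51 of the 65, beside a background of 74.9%. With centring on the array median, which raised the median of all genes to 0.41, 15 members were higher and 28 lower. Over all 24151 genes that setting called 10810 higher and 3767 lower. With quantile normalization 12 members were higher and 29 lower, beside 6032 and 4271 of all genes. Of the 65, 56 were well above background on all 4 arrays. In this stricter set of 56, 25 were lower and 4 higher.

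**Figure D1:**
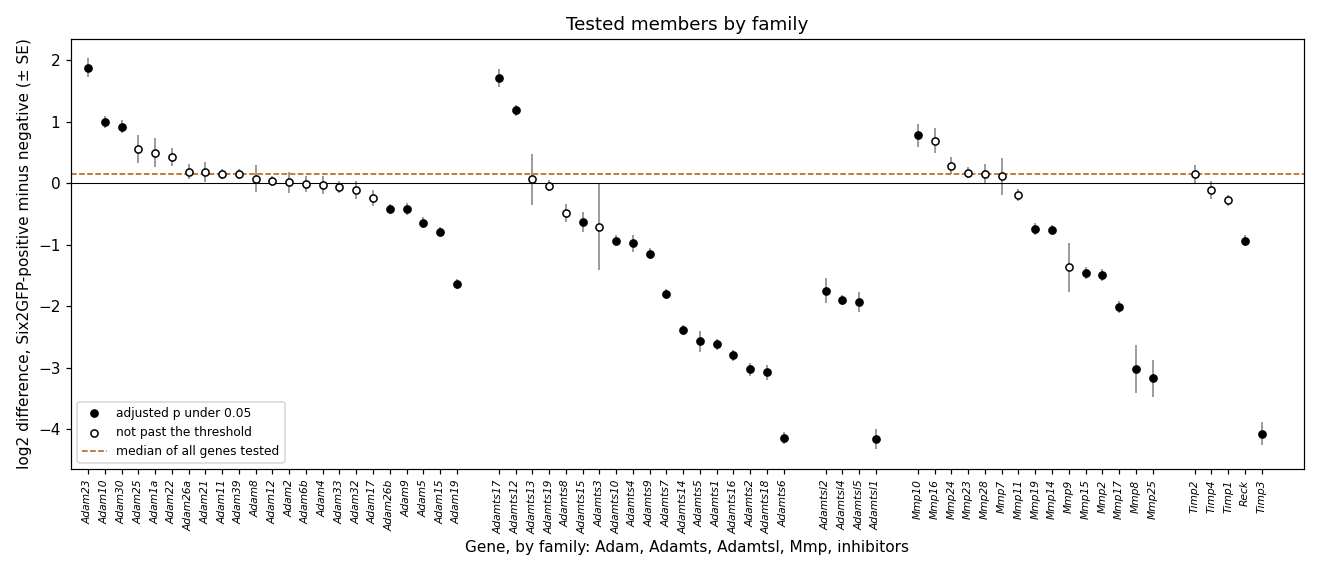
Log2 difference (Six2GFP-positive minus Six2GFP-negative, y axis) of the 65 tested genes, ordered within each family along the x axis; points are limma estimates, bars are ± 1 SE (n = 2 arrays per group), filled points passed an adjusted p of 0.05. Most filled points lie below 0, and the dashed line marks the median of all genes tested at 0.15; for the 6 genes dim in a group the plotted value is the fit and not a bound.

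The families did not share 1 pattern. Of 18 Adamts genes tested, 12 were lower and 2 higher, and all 4 Adamtsl genes tested were lower. Of 15 Mmp genes, 7 were lower and 1 higher, and of 5 inhibitor genes, 2 were lower and none higher. Over all 24151 genes, 18.3% were lower and 20.7% higher, and with the array median 3767 were lower and 10810 higher. Adam genes had 5 lower (21.7%) and 3 higher (13.0%) of 23, a balance with no settled direction. It was 3 lower and 9 higher with the array median, 4 and 7 with quantile normalization, 4 and 5 with the replicate number as a block, and 2 and 3 when any 1 array was left out; with the mean of a gene's probes it was 5 and 5, and without a filter on dim probes 3 and 3. The medians were 0.04 for Adam, -1.06 for Adamts, -1.91 for Adamtsl, -0.75 for Mmp (-0.29 with bounds) and -0.28 for the inhibitors. Whether the families differ from each other was not tested.

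**Figure D2:**
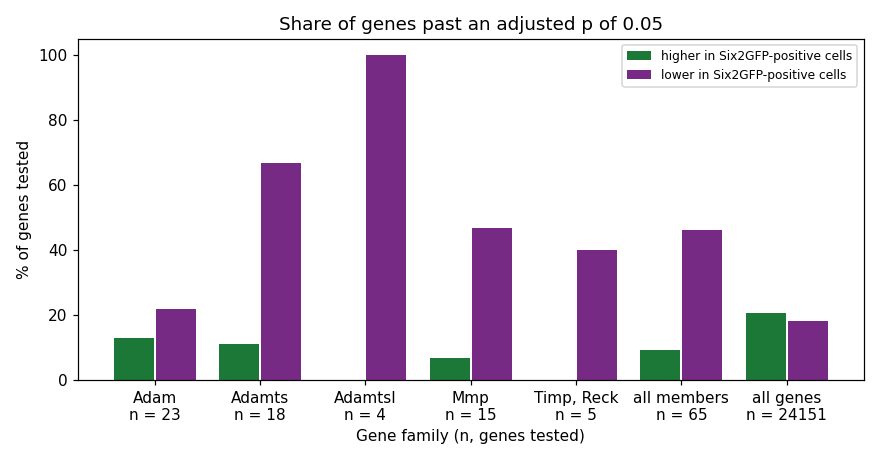
Percent of tested genes called higher (left bar of each pair) or lower (right bar) in Six2GFP-positive cells for each family, for all 65 tested members and for all 24151 genes. With this scaling the lower bar is the taller one in every family and in the members as a whole, an order that turns for Adam with the array median, with quantile normalization, with the replicate number as a block or without any 1 array; all genes have 20.7% higher and 18.3% lower.

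Among the inhibitors, Timp3 stood out and the other tissue inhibitors did not pass the test. Timp3 binds to the extracellular matrix and inhibits MMPs and several ADAM and ADAMTS enzymes, among them ADAM17. Its level was -0.34 and -0.80 on the positive arrays, against 3.56 and 3.45 on the negative arrays. Both negative arrays lay far above both positive arrays, a 16.8-fold lower level in positive cells (log2 difference -4.07 ± 0.19, limma adjusted p = 0.000857). The probe lies at mm9 chr10:85811696-85811755. Reck encodes a membrane-anchored inhibitor of several MMPs and of ADAM10. It had -1.67 and -1.69 in positive cells, against -0.71 and -0.79 in negative cells, with no overlap (-0.93 ± 0.09, adjusted p = 0.00398), and its other probe gave -0.81 (adjusted p = 0.00548).

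Timp2, which also takes part in the activation of pro-MMP2 by MMP14, had 4.76 and 4.67 in positive cells and 4.39 and 4.74 in negative cells. The groups overlapped (0.15 ± 0.15, adjusted p = 0.482). Timp1, a secreted inhibitor, had 0.24 and 0.12 in positive cells, against 0.45 and 0.47 in negative cells; the groups did not overlap, and the difference of -0.28 ± 0.09 missed the threshold (adjusted p = 0.0852). Timp4 had -4.95 and -5.30 in positive cells and -4.98 and -5.05 in negative cells, which overlap (-0.11 ± 0.15, adjusted p = 0.592). Among the 4 Timp genes, then, Timp3 alone was called in these settings, while Timp1 was called lower in 3 alternative settings (adjusted p from 0.0339 to 0.0446).

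**Figure D3:**
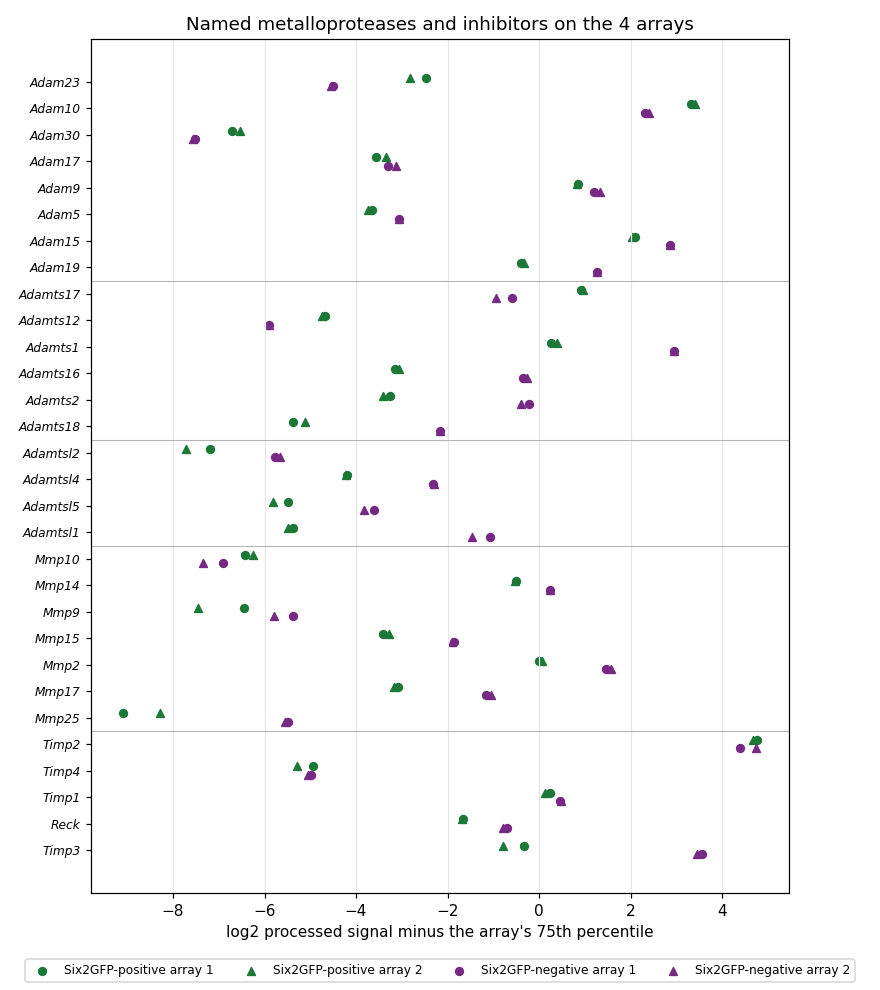
Level of the 30 individually described genes on each array (x axis, log2 processed signal minus the array's 75th percentile), grouped by family down the page; Six2GFP-positive arrays are green, Six2GFP-negative arrays purple, circles array 1 and triangles array 2. Wide gaps between the groups are seen at Adamtsl1 and Timp3, with the negative arrays to the right, and the groups interleave at Timp2 and Timp4.

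Of 11 tested membrane ADAMs with roles in many tissues, 3 were lower (27.3%) and 2 higher (18.2%), beside backgrounds of 18.3% and 20.7%. Adam10, the main sheddase of Notch receptors and of cadherins, was among the higher ones. Its level was 3.32 and 3.40 in positive cells, against 2.32 and 2.41 in negative cells. The positive arrays were both higher by about the same amount, 1.99-fold (log2 difference 0.996 ± 0.09, adjusted p = 0.00393; probe at mm9 chr9:70627859-70627918). Adam17, the sheddase of tumour necrosis factor and of many EGF receptor ligands, had -3.57 and -3.34 in positive cells, against -3.29 and -3.14 in negative cells. Its groups lay next to each other without overlap and its difference did not pass (-0.24 ± 0.13, adjusted p = 0.205).

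Adam23 has no active protease site and acts as an adhesion and receptor protein, known best from neurons. It had -2.47 and -2.83 in positive cells, against -4.51 and -4.55 in negative cells, which is 3.68-fold higher (1.88 ± 0.15, adjusted p = 0.00292; mm9 chr1:63639339-63639398). A second probe of Adam23 was also called higher (adjusted p = 0.00564), and it was not well above background on either negative array, so it gives no size. Its relatives Adam11 and Adam22, which also lack an active site, gave 0.15 ± 0.08 (adjusted p = 0.223) and 0.43 ± 0.14 (adjusted p = 0.0853) with the brightest probe.

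Adam19, which encodes a protease able to shed neuregulins, was lower in positive cells. It had -0.40 and -0.34 in positive cells, against 1.27 and 1.25 in negative cells (-1.63 ± 0.08, adjusted p = 0.00105). Adam15, an integrin-binding ADAM, had 2.10 and 2.03 in positive cells, against 2.86 in both negative samples (-0.79 ± 0.08, adjusted p = 0.00602). The groups were apart for both genes by far more than their arrays differed. Adam9, a sheddase of wide expression, had 0.85 and 0.83 in positive cells, against 1.19 and 1.33 in negative cells (-0.42 ± 0.10, adjusted p = 0.0363), and its call was lost when any 1 of the 4 arrays was left out (adjusted p from 0.0653 to 0.154). Adam8, known from leukocytes, Adam12, of muscle and mesenchyme, and Adam33 did not pass (differences 0.08, 0.04 and -0.06).

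Of the 20 ADAM genes known mainly from testis or epididymis, where their products act on sperm, 12 were tested. Of the 12, 2 were lower (16.7%), 1 higher (8.33%) and 9 not past the threshold, beside backgrounds of 18.3% lower and 20.7% higher. Adam30 had -6.70 and -6.55 in positive cells, against -7.52 and -7.57 in negative cells, where neither array was well above background. It was at least 1.79-fold higher in positive cells (limma adjusted p = 0.00608; fitted log2 difference 0.92), beside a background of 0.397% of genes that were dim in negative cells and above background on both positive arrays. With normexp background correction the fitted difference of Adam30 was 0.26 after scaling to the 75th percentile (adjusted p = 0.0447) and 0.13 after quantile normalization, where the call was lost (adjusted p = 0.175). Adam5 had -3.65 and -3.74 in positive cells, against -3.05 and -3.06 in negative cells (-0.64 ± 0.09, adjusted p = 0.0109), with a call lost when any 1 array was left out (adjusted p from 0.0511 to 0.0693). Adam26b differed by -0.41 ± 0.08 (adjusted p = 0.0279) and also lost its call without any 1 array (adjusted p up to 0.131). Several of these genes have close copies (Adam26a and Adam26b, Adam6a and Adam6b), and a probe of 60 bases may take up RNA of both.

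ADAMTS proteases were the family with the most genes lower in progenitor cells. Among the proteoglycanases, which cut versican and aggrecan, 5 of 6 tested were lower and none higher. Adamts1, whose loss in mice disturbs kidney development, had 0.25 and 0.40 in positive cells, against 2.94 and 2.95 in negative cells. It was 6.15-fold lower (-2.62 ± 0.10, adjusted p = 0.000603; mm9 chr16:85795044-85795103), and the gap between the groups was wide against the spread within them. The other 4 that were lower were Adamts5 (-2.57), Adamts9 (-1.15), Adamts4 (-0.98) and Adamts15 (-0.63). Adamts15 had an adjusted p of 0.046 and lost its call without any 1 array (adjusted p up to 0.155), and Adamts4 lost it without either negative array (adjusted p up to 0.0641). Adamts8 gave -0.49 ± 0.15 (adjusted p = 0.0673).

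The procollagen N-proteinases, which trim fibrillar procollagens before fibrils form, had 2 of 3 lower. Adamts2 had -3.27 and -3.40 in positive cells, against -0.23 and -0.39 in negative cells (-3.03 ± 0.11, adjusted p = 0.000586), and its other probe gave -0.72 (adjusted p = 0.0481). Adamts14 had -2.55 and -2.51 in positive cells, against -0.17 and -0.13 in negative cells (-2.38 ± 0.08, limma adjusted p = 0.000578). With these probes both pairs of arrays were clearly apart. The other probe of Adamts14 gave 0.04 and was not called (limma adjusted p = 0.857 in the fit by probe). Adamts3 overlapped between groups, with -5.86 and -7.79 in positive cells, where 1 array was not well above background, and -6.33 and -5.91 in negative cells (adjusted p = 0.468).

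Of the other 9 ADAMTS genes, 5 were lower and 2 higher. Adamts16, which has been linked to kidney development and blood pressure in rodents, had -3.15 and -3.06 in positive cells, against -0.34 and -0.27 in negative cells (-2.80 ± 0.09, adjusted p = 0.000553). Its close relative Adamts18 had -5.39 and -5.11 in positive cells, against -2.17 and -2.18 in negative cells (-3.08 ± 0.13, adjusted p = 0.00072). The relatives were lower by 6.95-fold and 8.44-fold. Adamts6, of the microfibril-associated enzymes, was not well above background on either positive array (-9.19 and -9.04) and had -4.93 and -5.01 in negative cells. It was at least 4.21-fold lower in the processed signal, and its fitted difference was as small as -0.70 over the alternative settings. Its limma adjusted p of 0.000499 tests the fitted difference of -4.14, which uses the dim values, and not this bound. The same holds for every other adjusted p given with a bound. Adamts10, its nearest relative, differed by -0.93 ± 0.09 and Adamts7 by -1.80 ± 0.08 (adjusted p = 0.00518 and 0.000868).

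The ADAMTS genes that were higher were Adamts17 and Adamts12. Adamts17, in which human mutations cause a syndrome of short stature and lens displacement, had 0.92 and 0.96 in positive cells, against -0.60 and -0.94 in negative cells. Both positive arrays lay above both negative arrays, a 3.28-fold higher level (1.72 ± 0.15, adjusted p = 0.00335; mm9 chr7:74297448-74297507), and its other probe gave 0.90 (adjusted p = 0.00407). Adamts12 had -4.69 and -4.74 in positive cells, against -5.90 and -5.89 in negative cells (1.18 ± 0.08, adjusted p = 0.00207), and its other probe, also called higher (adjusted p = 0.0244), was not well above background on either negative array and gives no size. Adamts19, the closest relative of Adamts17, gave -0.04 ± 0.10 with overlapping groups (adjusted p = 0.787), and so did Adamts13, which cleaves von Willebrand factor (0.07 ± 0.41, adjusted p = 0.91).

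All 4 ADAMTS-like genes tested were lower in progenitor cells. These secreted proteins bind fibrillin microfibrils or regulate ADAMTS enzymes. Adamtsl1 had -5.38 and -5.48 in positive cells, against -1.08 and -1.46 in negative cells. It was 17.9-fold lower (-4.16 ± 0.16, adjusted p = 0.00065; mm9 chr4:86074196-86074255), while its other probe, not well above background on either positive array, was not called (adjusted p = 0.0833). Adamtsl4, a microfibril protein of the eye's lens suspension, had -4.19 and -4.21 in positive cells, against -2.32 and -2.30 in negative cells (-1.89 ± 0.08, adjusted p = 0.000764). Adamtsl5 had -5.48 and -5.82 in positive cells, against -3.62 and -3.84 in negative cells (-1.93 ± 0.17, limma adjusted p = 0.00338). Its other probe gave -0.29 and was not called (limma adjusted p = 0.0761 in the fit by probe). In none of these genes did the groups overlap. Adamtsl2, which binds a latent TGF-beta binding protein, had -7.20 and -7.72 on the positive arrays, neither of them clear of background. It had -5.77 and -5.67 in negative cells, and was at least 2.51-fold lower in the processed signal (limma adjusted p = 0.00755). Over the alternative settings its fitted difference was as small as -0.14. Without negative array 2 the adjusted p of Adamtsl2 was 0.0512, and with normexp background correction it was 0.0921 or 0.197.

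Among the MMPs, 4 of the 7 membrane-anchored enzymes were lower and none higher. Mmp14, which activates pro-MMP2 at the cell surface, had -0.51 and -0.52 in positive cells, against 0.23 on both negative arrays. It was 1.68-fold lower (-0.75 ± 0.08, adjusted p = 0.00607; mm9 chr14:55058775-55058834). Mmp15 had -3.42 and -3.28 in positive cells, against -1.86 and -1.91 in negative cells (-1.46 ± 0.10, adjusted p = 0.00184). Both belong to the transmembrane type, and neither overlapped between groups. Mmp17, held by a lipid anchor, had -3.09 and -3.17 in positive cells, against -1.17 and -1.06 in negative cells (-2.01 ± 0.09, adjusted p = 0.000868). Mmp25, the other lipid-anchored MMP, known from neutrophils, had -9.10 and -8.28 on the positive arrays, neither of them clear of background, against -5.48 and -5.56 in negative cells. It was at least 2.88-fold lower in the processed signal (limma adjusted p = 0.00446), and its fitted difference was as small as -0.35 over the alternative settings. Mmp16, Mmp23 and Mmp24 did not pass (0.69, 0.17 and 0.29, adjusted p from 0.066 to 0.186).

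Of the gelatinases, which cut denatured collagen and type IV collagen of basement membranes, Mmp2 was lower. Its level was 0.00 and 0.06 in positive cells, against 1.47 and 1.58 in negative cells, a 2.81-fold lower level (-1.49 ± 0.09, adjusted p = 0.00158; mm9 chr8:95376840-95376899). Mmp2, Mmp14 and Timp2 act together in the activation of pro-MMP2, and here both enzymes were lower while Timp2 did not pass. Mmp9 had -6.45 and -7.46 in positive cells, where array 2 was not well above background, against -5.39 and -5.79 in negative cells. Both positive arrays were lower, and the difference of -1.37 ± 0.39 missed the threshold (adjusted p = 0.0607). Mmp9 was called lower in 5 of 13 alternative settings: without positive array 1 (-1.87, adjusted p = 0.0191), with the replicate number as a block (adjusted p = 0.0273), with the array median (-1.12, 0.0354), with an intensity trend and robust variance (0.0359) and with the deposited series table (-0.82, 0.0464). With normexp correction its difference was -0.18 or -0.26 and was not called.

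The other secreted MMPs were largely undetected: 6 of 14 were tested, and 2 were lower, 1 higher and 3 not past the threshold. The backgrounds over all genes were 18.3% lower and 20.7% higher. Mmp8, the collagenase of neutrophils, had -8.21 and -9.08 on the positive arrays, neither of them clear of background, against -5.32 and -5.93 in negative cells, and was at least 2.68-fold lower (adjusted p = 0.00949). That bound applies to the processed signal alone. Over the alternative settings the fitted difference of Mmp8 was as small as -0.39, and the call held. Mmp19 was at least 1.22-fold lower (adjusted p = 0.0104), but its fitted difference was 0.03 with normexp correction and the 75th percentile. Along with Adamts6, Adamtsl2 and Mmp25, these make 5 members that were above background in negative cells only, beside a background of 3.57% of genes. Mmp10, a stromelysin, had -6.43 and -6.26 in positive cells, against -6.91 and -7.34 in negative cells, of which 1 was not well above background. The groups did not overlap (0.78 ± 0.18, adjusted p = 0.0388), but the call was lost in 8 of 13 alternative settings, among them those without either positive array or without negative array 2 (adjusted p from 0.0807 to 0.145). Mmp11, a stromelysin of mesenchyme, Mmp28 and Mmp7 did not pass (-0.18, 0.14 and 0.11).

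In all, 19 of the 84 genes were not tested because no probe was well above background on both arrays of a group. Of these, 13 were above background on no array: Adam1b, Adam24, Adam28, Adam29, Adam3, Adam34, Adam6a, Adamts20, Mmp1a, Mmp1b, Mmp20, Mmp21 and Mmp3. The other 6, Adam18, Adam7, Adamtsl3, Mmp12, Mmp13 and Mmp27, were above it on 1 or 2 arrays, and not on both of a group. Mmp13, a collagenase of cartilage and bone, had -6.98 and -8.34 in positive cells and -7.18 and -7.97 in negative cells, with 1 array above background in each group. Such values say that the RNA was not detectable by these probes, not that it was absent.

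The undetected genes included most of a gene cluster. On chromosome 9, 10 Mmp genes lie close together, with probes between 7282762 and 7697700 of mm9, and 7 of them were not tested: Mmp1a, Mmp1b, Mmp3, Mmp12, Mmp13, Mmp20 and Mmp27. The promoters of these genes, as RefSeq gives them for GRCm38.p6, were compared with those of the other members. In the 250 bases before the start, 3 motifs were searched on both strands: the TATA box TATAAA, the AP-1 site TGANTCA, which binds Fos and Jun proteins and reads the same on both strands, and the GC box GGGCGG. The RefSeq table held 58 promoters of 53 of the 84 members. Shown are 120 bases before the start for the 7 cluster genes with both a TATA box and an AP-1 site, and for comparison Mmp14, Timp3 and Adam23, all chosen after the matches were seen; capitals mark the motifs, on either strand, and no match overlaps another.
Mmp13 (GRCm38.p6 chr9:7272394-7272513, plus strand): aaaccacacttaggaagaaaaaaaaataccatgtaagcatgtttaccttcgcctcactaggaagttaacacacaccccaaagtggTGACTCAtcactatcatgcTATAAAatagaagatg
Mmp1b (GRCm38.p6 chr9:7388027-7388146, minus strand): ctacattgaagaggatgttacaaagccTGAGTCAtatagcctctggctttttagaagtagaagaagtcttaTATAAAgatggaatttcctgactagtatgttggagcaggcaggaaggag
Mmp3 (GRCm38.p6 chr9:7445702-7445821, plus strand): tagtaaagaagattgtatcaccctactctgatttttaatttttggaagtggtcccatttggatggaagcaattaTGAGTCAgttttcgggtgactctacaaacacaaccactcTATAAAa
Mmp1a (GRCm38.p6 chr9:7464021-7464140, plus strand): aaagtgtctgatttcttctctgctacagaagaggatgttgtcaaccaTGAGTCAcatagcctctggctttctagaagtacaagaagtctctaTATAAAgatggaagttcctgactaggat
Mmp10 (GRCm38.p6 chr9:7502222-7502341, plus strand): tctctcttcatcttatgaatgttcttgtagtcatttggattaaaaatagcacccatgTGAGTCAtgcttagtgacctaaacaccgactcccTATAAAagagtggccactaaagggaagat
Mmp20 (GRCm38.p6 chr9:7628111-7628230, plus strand): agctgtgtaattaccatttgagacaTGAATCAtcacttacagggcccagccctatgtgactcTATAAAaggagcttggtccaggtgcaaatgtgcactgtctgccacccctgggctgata
Mmp7 (GRCm38.p6 chr9:7691970-7692089, plus strand): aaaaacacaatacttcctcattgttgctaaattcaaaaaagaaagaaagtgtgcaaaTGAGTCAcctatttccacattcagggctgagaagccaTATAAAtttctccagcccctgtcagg
Mmp14 (GRCm38.p6 chr14:54431478-54431597, plus strand): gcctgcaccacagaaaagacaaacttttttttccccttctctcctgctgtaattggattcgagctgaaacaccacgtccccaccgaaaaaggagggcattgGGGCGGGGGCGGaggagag
Timp3 (GRCm38.p6 chr10:86300292-86300411, plus strand): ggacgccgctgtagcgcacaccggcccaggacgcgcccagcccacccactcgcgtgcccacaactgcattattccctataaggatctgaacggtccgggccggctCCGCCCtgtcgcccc
Adam23 (GRCm38.p6 chr1:63445771-63445890, plus strand): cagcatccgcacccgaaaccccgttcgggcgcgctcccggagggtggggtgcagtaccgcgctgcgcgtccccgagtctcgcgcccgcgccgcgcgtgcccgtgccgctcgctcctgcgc

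In these sequences the AP-1 site stands upstream of the TATA box in all 7 cluster genes. In Mmp10 the AP-1 site begins 63 bases and the TATA box 29 bases before the start, and in Mmp7 they begin 63 and 26 bases before it. The distances differ in the others. The TATA box begins 7 bases before the start in Mmp3, 16 in Mmp13, 28 in Mmp1a, 49 in Mmp1b and 58 in Mmp20. In the same order the AP-1 site begins 46, 35, 73, 93 and 95 bases before it. Mmp7 holds another TATA box 123 bases before the start, outside the bases shown. Mmp1a and Mmp1b, which are near copies, share most of their letters around both motifs.

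Over all promoters of the cluster, 7 of 12 (58.3%) held the TATA box and 8 of 12 (66.7%) the AP-1 site, and none held the GC box. Among the 46 promoters of other members the shares were 13.0%, 6.52% and 54.3%. Over all 32851 promoters of the table they were 12.4%, 6.75% and 32.7%, and 399 promoters (1.21%) held both a TATA box and an AP-1 site. Grouped by result and not by place, promoters of the members not tested held the TATA box in 53.3% of 15 and the AP-1 site in 46.7%, while those of members called lower held the GC box in 73.7% of 19. Of the 14 genes in the first of these groups 7 are cluster genes, so the groupings are not independent. Of the 3 cluster genes that were tested, Mmp10 was higher, Mmp8 lower and Mmp7 not past the threshold. A match is a run of letters and says nothing of whether a factor binds there.

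**Figure D4:**
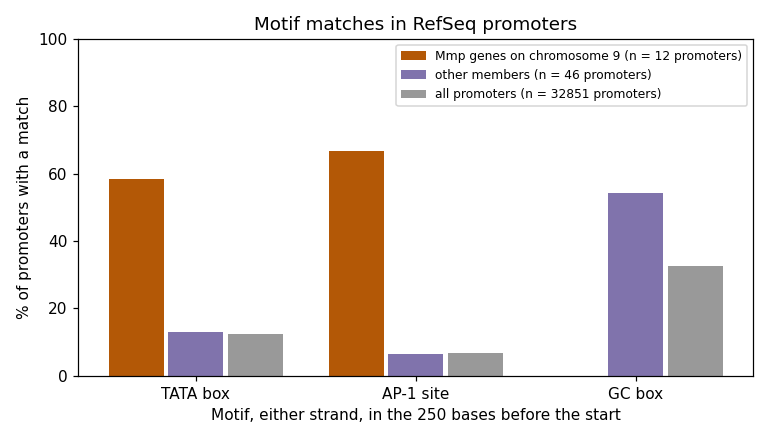
Percent of RefSeq promoters with at least 1 match to each motif in the 250 bases before the start, for the Mmp genes on chromosome 9 (12 promoters), the other members (46 promoters) and all promoters of the table (32851). The chromosome 9 group has the tallest bars for the TATA box (58.3%) and the AP-1 site (66.7%) and no bar for the GC box.

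On chromosome 8 lie 12 ADAM genes, taken by chromosome alone. Their probes run from 25712756 (Adam18) to 58350510 (Adam29) of mm9, a far wider stretch than that of the Mmp cluster. Of the 12, 7 were tested. Of these, 3 were lower (Adam5, Adam9 and Adam26b), none was higher and 4 did not pass. The backgrounds over all genes were 18.3% lower and 20.7% higher. Adam5, Adam9 and Adam26b each lost the call whichever array was left out.

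For 19 members, 2 probes passed the detection filter, which gave a check within the gene. In a fit of every kept probe on its own, 39.3% of all probes were called. In 16 of the 19 pairs both probes had the same sign, and in 14 they had the same call, while in 8 their differences were more than 2-fold apart. Those 8 were Adam12, Adamts2, Adamts5, Adamts12, Adamts14, Adamts16, Adamtsl1 and Adamtsl5. In 4 of the 8 (Adamts5, Adamts12, Adamts16 and Adamtsl1) the other probe was dim on both arrays of a group, so the size of that gap is not measured. The call differed between probes in 5 pairs: Adam11, Adam22, Adamts14, Adamtsl1 and Adamtsl5. Adamts14 and Adamtsl5 are those in which both probes were measured in both groups and the brighter probe, which stands for the gene, was the one called. The first 30 of the 60 bases of their probes are given next, on the minus strand, because each pair targets different places of a gene and differs in result.
Adamts14, brighter probe (mm9 chr10:60659860-60659919): tcaagtcatgtgtggaccggcctggagatg
Adamts14, other probe (mm9 chr10:60668150-60668209): gcccctcatcgggagtaataatgtgctcct
Adamtsl5, brighter probe (mm9 chr10:79804077-79804136): ttgctcatctacaaaagccgcacgcctctg
Adamtsl5, other probe (mm9 chr10:79805527-79805586): aagtttggctcctgggagccaaggctcttg

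The Adamts14 probes lie 8290 bases apart on the genome; the brighter one gave -2.38 and the other 0.04 (adjusted p = 0.857 in the fit by probe). For Adamtsl5, with probes 1450 bases apart, the values were -1.93 and -0.29 (adjusted p = 0.0761). In both, the brighter probe is the downstream one, as it was in 13 of the 19 pairs. Both probes of Adamts5 were called lower (adjusted p = 0.000793 for the other one), as were both of Adamts16 (0.0031). Adam12 gave 0.04 with the brighter probe and -2.27 with the other, which was above background on 1 of the positive arrays (adjusted p = 0.0657). For Adam11 and Adam22, which did not pass with the brighter probe, the other probe did (0.88, adjusted p = 0.0263, and 0.53, adjusted p = 0.0236). Whether the probes see different transcripts was not tested.

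**Figure D5:**
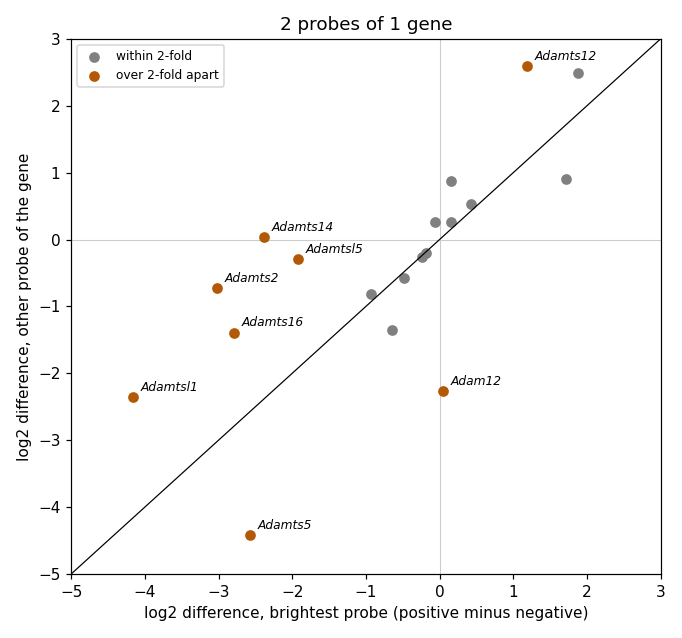
Log2 difference (Six2GFP-positive minus Six2GFP-negative) of the brighter probe that stands for the gene (x axis) against that of the other probe of the same gene (y axis) for 19 genes; the diagonal marks equal values. The 8 labelled genes lie more than 2-fold off the diagonal, of which 4 (Adamts5, Adamts12, Adamts16 and Adamtsl1) rest on a fitted value of a probe dim in a group, and Adamts14 and Adam12 lie near 0 on 1 axis and beyond -2 on the other.

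Genes that work with these proteases were examined in 9 lists of 66 genes, 58 of them tested. Of these, 28 were lower and 6 higher, beside backgrounds of 18.3% lower and 20.7% higher, with a median of -0.42 (0.15 over all genes tested). With the array median the counts were 26 and 10, beside 3767 lower and 10810 higher of all 24151 genes. Of the 34 called, 24 kept the call in every alternative fitted by gene, and the exceptions were Pcsk6, Rhbdf2, Serpinf2, Tmprss6, Mep1a, Spock3, Egf, Hbegf, B3glct and Pofut2. The plasminogen system, which activates several MMPs, had 7 of 8 lower and none higher. St14, the membrane serine protease matriptase, had -3.78 and -4.52 in positive cells, against -0.56 and -0.32 in negative cells (-3.71 ± 0.29, adjusted p = 0.00268). Serpinf2, the plasmin inhibitor, had -2.25 and -3.48 in positive cells, against 0.60 and 0.64 in negative cells (-3.48 ± 0.44, adjusted p = 0.00952), with the call lost without either negative array (0.0541 and 0.0584). Both activators and inhibitors were thus among the lower ones, the urokinase gene Plau at -3.19 as well, while the tissue activator gene Plat did not pass (0.27).

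Regulators of ADAM10 and ADAM17 came next. Of the tetraspanins that guide ADAM10 to the surface and to its substrates, 3 of 5 were lower: Tspan15 (-1.98 ± 0.16), Tspan33 (-1.38 ± 0.10) and Tspan5 (-1.03 ± 0.11), with adjusted p from 0.00208 to 0.00553. Tspan14 and Tspan17 overlapped between groups (-0.05 and 0.03). So Adam10 was higher while none of these partners was. The inactive rhomboids that carry ADAM17 through the cell went in opposite directions. Rhbdf2 had -0.53 and -0.85 in positive cells, against -1.49 and -1.78 in negative cells (0.94 ± 0.17, adjusted p = 0.0229), and its call was lost without positive array 1, negative array 1 or negative array 2 (adjusted p from 0.0533 to 0.0844). Rhbdf1 had 0.49 and 0.65 in positive cells, against 1.69 and 1.64 in negative cells (-1.10 ± 0.10, adjusted p = 0.00395). Among proprotein convertases, which remove the inhibitory prodomains, Pcsk5 (-1.85 ± 0.09) and Pcsk6 (-0.40 ± 0.09) were lower and Furin did not pass (-0.27). The call of Pcsk6 (adjusted p = 0.0343) was lost when any 1 array was left out, with the replicate number as a block, with the array median and with dim probes kept (adjusted p from 0.058 to 0.326).

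Among ligands that ADAMs shed, Egf was higher (0.75 ± 0.18, adjusted p = 0.0399) and 3 of 6 were lower, led by Btc (-3.17 ± 0.19) and Nrg1 (-2.08 ± 0.18). Btc was well above background on only 1 of the positive arrays, so its size rests partly on a dim value. The call of Egf was lost without either positive array or negative array 2, with the replicate number as a block and with dim probes kept (adjusted p from 0.0506 to 0.137). Among other metalloprotease inhibitors and inducers, Spock2, a matrix proteoglycan of the testican family, was higher. It had 2.54 and 2.57 in positive cells, against -1.76 and -1.58 in negative cells (4.22 ± 0.10, adjusted p = 0.000499). Rarres1 (-2.89 ± 0.28) and Sfrp1 (-2.70 ± 0.21) were lower.

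Substrates and modifiers of the ADAMTS enzymes had 2 higher and 3 lower of 10, shares near the backgrounds of 20.7% higher and 18.3% lower, and a median of 0.19. Vcan, the versican gene and a target of the proteoglycanases, had 4.17 and 4.39 in positive cells, against 1.96 and 1.82 in negative cells. It was higher in both positive samples (2.39 ± 0.12, adjusted p = 0.00108), while 5 of the 6 proteoglycanases tested were lower. B3glct, which adds a sugar to the thrombospondin repeats of ADAMTS proteins, was at the edge of the threshold (0.38 ± 0.10, adjusted p = 0.0499) and lost its call when any 1 array was left out (adjusted p from 0.0857 to 0.197). Vwf, the substrate of ADAMTS13 and a product of endothelium, was lower (-2.33 ± 0.21), as was the fibrillin gene Fbn1 (-1.10 ± 0.12).

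Of other metalloprotease families, the astacins had 3 of 6 lower, with Mep1a, a brush border enzyme, at -2.82 ± 0.39 (call lost without either negative array, adjusted p = 0.0533 and 0.0657) and Pcolce2, an enhancer of procollagen processing, at -2.54 ± 0.18. Bmp1 did not pass (-0.39). In the neprilysin group, Mme had -5.42 on both positive arrays, against -1.67 and -1.56 in negative cells (-3.80 ± 0.09, adjusted p = 0.000499). Kel, the blood group antigen of red cells, had -7.75 and -6.97 on the positive arrays, neither of them clear of background, against -2.82 and -2.69 in negative cells, a level at least 19.4-fold lower (adjusted p = 0.00166). Mmel1, a close relative of Mme, was higher (0.95 ± 0.10, adjusted p = 0.00634). Erythroid markers moved with Kel, proximal tubule markers with Mme and Mep1a, and endothelial markers with Vwf; their part was not tested.

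The gap between the 2 positive arrays varied with the marker list. Positive array 1 exceeded positive array 2 by a median of 1.61 in distal tubule, 0.62 in proximal tubule and 0.51 in leukocyte markers. The median gap was 0.38 for ureteric bud, 0.21 for stromal, 0.04 for podocyte and early nephron and 0.02 for endothelial markers. For erythroid markers it was -0.26, with positive array 2 the higher one. The median gap of the 65 members between these arrays was close to 0. Among individual members the gaps went both ways. Timp3 was higher on positive array 1 by 0.46 and Adamts3 by 1.93, and Mmp9 was higher there too. Adamts13 and Adam8 were lower there (array 1 minus array 2, -0.89 and -0.54). Timp3 kept its call without any 1 array (adjusted p up to 0.0126).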

How the data were processed

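Expression was measured on 4 one-colour arrays, 2 per group, and groups were taken from the sample titles. Per the file headers, the authors used Agilent Feature Extraction 10.7.3.1 (protocol GE1_107_Sep09, array design 026655, probe coordinates of mm9), and the deposited scanner files give linear intensity values per spot, detrended within each array but not scaled between arrays. The deposited series table repeats these intensity values, linear and uncentred: over 99% of probes matched the scanner value to within 0.01 log2, and its medians were 114 and 110 for positive cells, and 158 and 144 for negative cells. The sources used here do not give any normalization between arrays or testing by the authors.

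An array carried 43020 spots for 39429 probes of 60 bases. Spots well above background made up 75.2% and 72.5% in positive cells, 79.1% and 76.8% in negative cells, and 0 spots were saturated; the number of arrays limits the precision. After removal of outlier spots, which cost 34 probes, spots of a probe were averaged as log2 processed signal minus the array's 75th percentile (signals of 1430 and 1410 in positive cells, 1604 and 1587 in negative cells). A probe entered the fit if both arrays of either group were well above background (30013 probes). Names came from RefSeq's gene table by accession, which named 109 of the 114 member probes, and otherwise from the file; the brightest probe on average stood for its gene. The comparison used lmFit and eBayes of limma 3.58.1 (R 4.3.3), two-sided, with Benjamini-Hochberg adjustment over 24151 genes, and was tested on simulated data. Where every probe of a gene failed the background criterion on both arrays of a group, a bound replaces the fold. It sets the brighter group's mean against a floor for each array, the larger of the dim value and the faintest signal that passed the criterion, and applies to the processed signal alone. Such a gene passed the filter through its brighter group only. An adjusted p beside a bound tests the fitted difference and not the bound.

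The genes described, and the partner and marker lists, were chosen with earlier results of these data known; functional classes were written down after the data were seen. Described individually were Timp1 to Timp4, Reck, Adam10, Adam17, Mmp2, Mmp9 and Mmp14 and, in each family, the 4 called genes with non-overlapping groups and the largest difference in each direction, by their bound where there is one; of each partner list, the 2 most changed in each direction. Values of further genes were picked after they were seen. Promoter sequences are RefSeq's for GRCm38.p6. All arrays shared 1 slide and 1 scan time. Arrays with the same number deviated together with a correlation of 0.224, but 2 pairs do not settle whether the numbers pair them. Alternatives covered scaling, background correction, the series table, the filter, the choice of probe, the variance model, the replicate number as a block and each array left out.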

Additional observations from a re-analysis of the deposited data

How the results depend on the processing

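The count of lower members stayed between 24 and 32 and that of 2-fold lower members between 14 and 23 in the 14 alternatives fitted by gene; by probe, 35 of 84 probes were lower and 23 of them 2-fold lower. Of the called members, 27 of 36 were called in every alternative fitted by gene; the exceptions were Adam5, Adam9, Adam26b, Adam30, Adamts4, Adamts15, Adamtsl2, Mmp10 and Mmp19. Of 415 values of the 30 individually described genes, 384 kept direction and call, 23 lost the call, 8 gained it and 0 reversed. Counts of higher members depended on the scaling and the probe: instead of 6 they were 12 with quantile normalization, 15 with the array median and 11 (of probes) with every probe on its own, and instead of 3 at least 2-fold higher they were 5, 6 and 5. The median over members moved from -0.41 to -0.30 with quantile normalization, -0.16 with the array median, -0.14 and -0.16 with normexp (75th percentile and quantile), -0.11 without a filter on dim probes, -0.21 with all 4 arrays above background and -0.28 by probe. Partner genes called higher were 10 in place of 6 with the array median and by probe. Over all genes 9402 were called, and 14577 with the array median. Genes called higher over the whole array went from 4989 to 6032 with quantile normalization and to 10810 with the array median.

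With 1 array left out, where the lone array is assumed to vary like the other group, 4643 to 5309 genes were called, 24 to 28 members were lower, 5 to 7 higher and 3 to 5 at least 2-fold higher (5 without positive array 1), the member median was -0.40 to -0.32 and 3 or 4 partner genes were higher. With normexp, differences of genes dim in a group shrank, to -0.70 for Adamts6 and -0.35 for Mmp25 at the least, whose calls held, and to 0.13 for Adam30, whose call was lost after quantile normalization (adjusted p = 0.175). With the replicate number as a block, 4244 genes were higher and 4371 lower, 30 members lower and 7 higher; Adam9 (adjusted p = 0.0562) and Mmp10 (0.0643) lost their call and Mmp9 (0.0273), Adam1a and Adam25 gained one. The cause of these changes was not tested. Dim probes limit the untested members and all bounds.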
